A study of Drosophila melanogaster with 12 samples.

Results

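The 57 genes described here were known on the array only by a CG number, and in ovaries of all 3 su(Hw) mutant genotypes their signal stood apart from wild type in the same direction. They were chosen by these values. Signals were taken as log2(signal + 16) after quantile normalization over the 12 arrays, with the brightest probe set that names a single gene standing for that gene. A gene was kept if its array symbol starts with CG, if its mean in each mutant genotype differed from wild type by at least 1.5 in one direction, and if the 3 mutant means lay within 1 of each other. Of 11982 genes measured, 5209 carry a CG symbol. The rule kept 28 genes that were higher in the mutants (0.538% of the CG-named genes) and 29 that were lower (0.557%). Because the rule used the difference from wild type, those differences are given as a description, without a test.

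Each group was 3 arrays, and each array was a pool of about 150 pairs of ovaries from virgin females 4 to 6 h old. The groups were wild type (Canton S), su(Hw)f/su(Hw)v (f/v), which is fertile, and su(Hw)2/su(Hw)v (2/v) and su(Hw)Pb/su(Hw)2 (Pb/2), which are sterile. No allele is common to the 3 mutant genotypes: the v allele is common to f/v and 2/v, the 2 allele to 2/v and Pb/2. Per the design of the series, ovaries at this age hold no egg chamber beyond stage 8, and chambers that lack Su(Hw) undergo apoptosis at stage 9. The labels name a strain for wild type only, so a difference between wild type and all 3 mutants cannot be told apart from a difference in strain background. The labels conflict on the tissue, which is ovary in the tissue and title fields and embryos in the other fields; the samples are taken as ovary.

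Su(Hw) is a zinc finger protein that binds DNA at many places in the fly genome. It is best known for the insulator of the gypsy retrotransposon, where it keeps an enhancer from acting on a promoter on the other side of it, and in the female germ line it also represses transcription of genes near its binding sites. CG numbers were given to predicted genes by the fly genome annotation, and a gene keeps its number as its symbol until it is named, so for most of these genes no function can be stated here. All 56 of the 57 genes that were found in the RefSeq gene table are protein coding there. The remaining gene, CG42254, was not located in that table.

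The transcript of su(Hw) itself read 3865, 3562 and 3999 in wild type, 2913, 2708 and 2591 in f/v, 85.1, 129 and 81.4 in 2/v and 85.8, 153 and 212 in Pb/2. It was low in all 6 arrays of the sterile genotypes and only moderately below wild type in f/v. The rule asked for a difference from wild type in every mutant genotype, f/v included. That the 57 genes stood apart at each of these su(Hw) levels was therefore set by the rule, and nothing is read from it. Whether their signal follows the su(Hw) transcript was not tested. Background was set at a signal of 66.5. This is the value that 95% of the readings of the 27 probe sets for bacterial control transcripts, over all 12 arrays, stayed under. Array medians lay between 96.5 and 132. Germline markers of the ovary (11 measured, summed signal 88550 to 98743 in wild type and 87233 to 101589 over the mutants) and follicle cell markers (10 measured) were detected, with none below background in every group. Of 12 testis markers, 8 were below background in every group. Hybridization controls, added at a fixed amount, exceeded wild type by factors of 1.23 for f/v, 1.40 for 2/v and 1.48 for Pb/2. That scale matters for the split: with arrays scaled to these controls the rule kept 7 higher and 98 lower genes, in place of 28 and 29. With the values as deposited, without quantile normalization, it kept 16 higher and 46 lower. The deposited arrays already share a trimmed mean of 1500.

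The 28 higher genes had a median signal of 161 in wild type and 918 in the mutants. Their median differences were 2.01, 2.08 and 2.06 in f/v, 2/v and Pb/2, where the median over all genes was 0.02, 0.02 and 0.01. In 4 of them every mutant mean lay at least 3 above wild type on the log2 scale, and in 7 at least 2. Differences on the log2(signal + 16) scale understate the change of dim genes. In RNA from a whole organ, more cells of a type and more RNA per cell cannot be told apart, and neither can fewer cells and less RNA per cell.

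CG33258, on chromosome arm 3L, had the largest smallest difference from wild type on the log2(signal + 16) scale (4.48), with CG2993 next to it (4.45). With an offset of 64 their order turned (3.60 for CG33258 and 3.98 for CG2993). CG33258 read 46.5, 27.5 and 39.2 in wild type, 1560.1, 1721 and 1364 in f/v, 1236, 1017 and 1260.4 in 2/v and 1308, 1339 and 1331 in Pb/2. It was below background in all 3 wild type arrays and far above it in all 9 mutant arrays, which puts it at least 23.2-fold, 17.5-fold and 19.9-fold higher in f/v, 2/v and Pb/2 when wild type is set at background. These bounds, like those below, compare group means with the higher of background and the dim group's own signal. CG2993, on 3R, read 107, 90.6 and 103 in wild type, 2866, 2344 and 2843 in f/v, 3173, 2744 and 2515 in 2/v and 2620.1, 2875 and 2122 in Pb/2. CG32017, on chromosome 4, read 249.6, 273 and 295 in wild type, 5989, 5596 and 5824 in f/v, 3999, 4432 and 4079 in 2/v and 4505, 4434 and 4288 in Pb/2. Both were measured above background in wild type. Their differences from wild type were 4.54 (f/v), 4.60 (2/v) and 4.45 (Pb/2) for CG2993 and 4.34 (f/v), 3.86 (2/v) and 3.94 (Pb/2) for CG32017. CG32017 was highest in f/v, where all 3 arrays exceeded all 6 arrays of the sterile genotypes, while the mutant arrays of CG2993 overlapped between genotypes. CG8768, on 2R, read 126, 174 and 159 in wild type, 1977, 2034 and 2183 in f/v, 2377, 2141 and 1965 in 2/v and 1678, 1835 and 1314 in Pb/2, and was lowest among the mutants in Pb/2.

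The next genes in order were above background in every array. CG6171, on 3R, read 472, 490.4 and 479.5 in wild type, 3285, 3421 and 3238 in f/v, 3724, 3381 and 3666 in 2/v and 2617, 2620.1 and 2581 in Pb/2, with differences of 2.75 (f/v), 2.86 (2/v) and 2.40 (Pb/2). Its wild type arrays lay close together, and its Pb/2 arrays lay below all other mutant arrays. CG4880, on X, read 640.1, 1129 and 1219 in wild type, 5265, 5428 and 5116 in f/v, 4822, 4655 and 4371 in 2/v and 4262, 4248 and 4261 in Pb/2. The first wild type array was well below the other two, while the mutant arrays fell into 3 tight sets with f/v at the top and Pb/2 at the bottom. CG2767, on 3R, read 1049.7, 996 and 1009 in wild type, 3968, 4193 and 4094 in f/v, 5082, 5369 and 5405 in 2/v and 4739.7, 4866 and 4726 in Pb/2. Here both sterile genotypes exceeded f/v in every array, with 2/v at the top. CG2641, also on 3R, read 148, 163 and 139 in wild type, 671, 695 and 615 in f/v, 615, 666 and 816 in 2/v and 626, 692 and 644 in Pb/2, and its 3 mutant means differed by only 0.08. The smallest range of mutant means, 0.06, was that of CG14715, which the gene table also lists as FKBP13, a name of the family of FK506-binding proteins that help other proteins fold. CG14715 read 4297, 3974 and 4449.9 in wild type, 15473, 15211 and 16286 in f/v, 14875, 15175 and 15267 in 2/v and 14817, 14751 and 15595 in Pb/2.

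CG10137, on 2L, read 187, 171 and 303 in wild type, 784, 843 and 854 in f/v, 1088, 1099 and 1024 in 2/v and 975, 849 and 1069.8 in Pb/2. CG42694, on 2R, read 168, 159.7 and 196 in wild type, 563, 818 and 649.5 in f/v, 746, 874 and 852 in 2/v and 798, 797 and 640.1 in Pb/2. In both, wild type and mutant arrays were well apart, and f/v had the lowest mutant mean. CG14609, on 3R, read 40.7, 3.39 and 14.3 in wild type, 193, 97.7 and 129 in f/v, 77.5, 127 and 103 in 2/v and 134, 107 and 129 in Pb/2. Its wild type arrays were all below background and scattered, so its differences of 2.23 (f/v), 1.86 (2/v) and 2.11 (Pb/2) depend on the offset; as a bound it was at least 2.02-fold, 1.51-fold and 1.85-fold higher in the same order.

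The other 16 higher genes were CG6912, CG31279, CG2961, CG34284, CG1233, CG42254, CG32212, CG32814, CG12885, CG15406, CG13793, CG7102, CG43052, CG11825, CG6678 and CG8870. Their smallest difference from wild type ran from 1.5 for CG8870 to just below that of CG14715 (1.83). In 7 of all 28 higher genes the 3 wild type arrays were below background. In 5 of these 7 all mutant arrays were above it, and in the other 2 some mutant arrays were below it as well. CG12885 belongs to this pair: it read 3.75, 3.36 and 3.32 in wild type, 15.6, 77.0 and 86.6 in f/v, 17.1, 95.5 and 54.8 in 2/v and 29.0, 54.4 and 59.5 in Pb/2. All 12 arrays of 20 higher genes were above background.

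**Figure D1:**
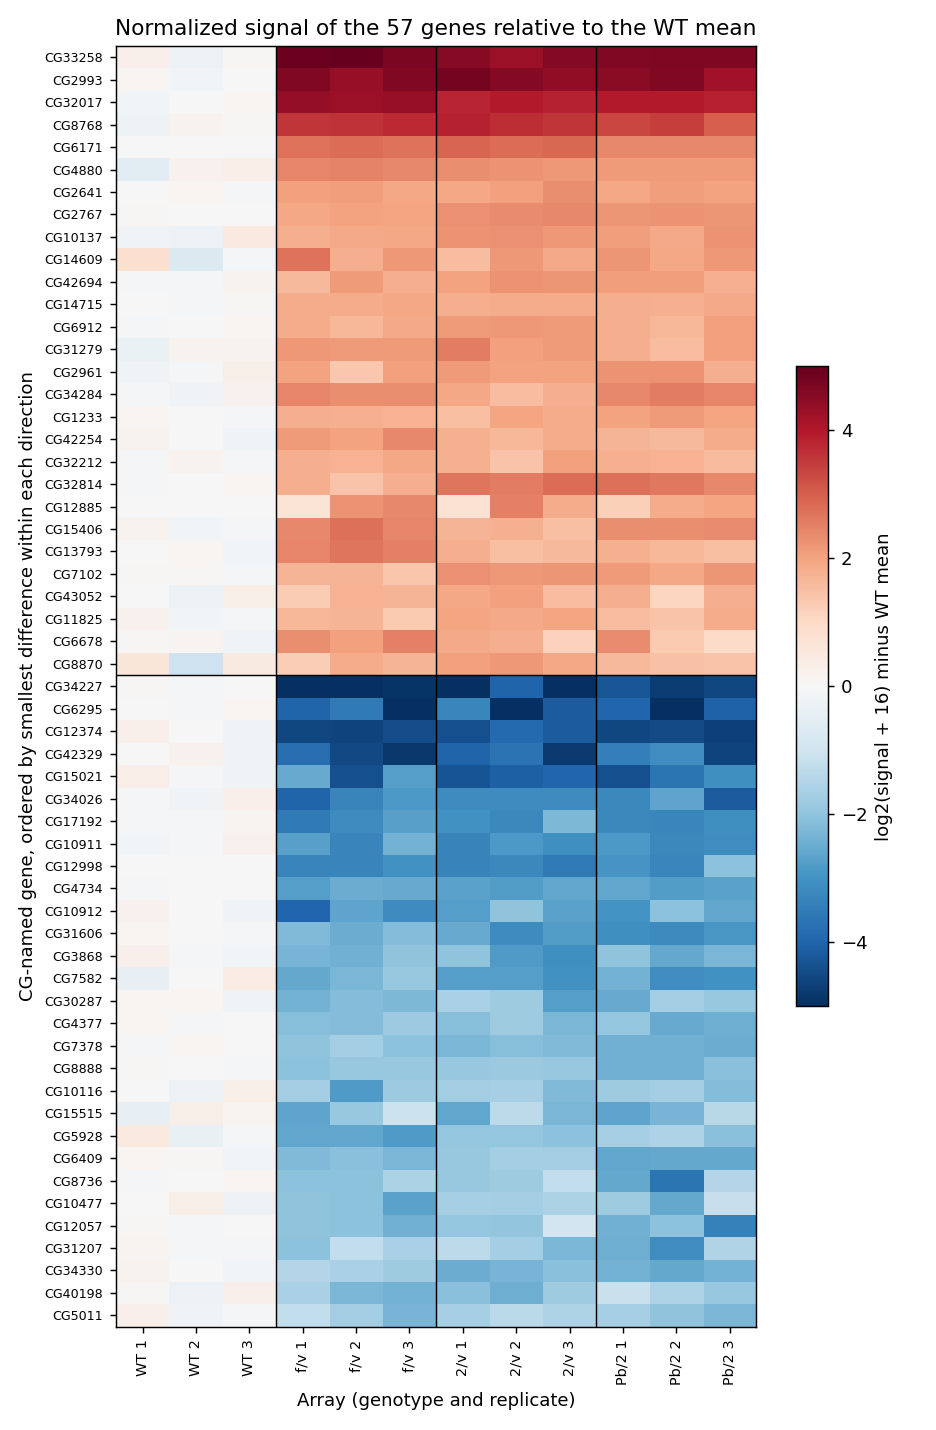
Each row is 1 of the 57 genes and each column 1 array; colour gives log2(signal + 16) minus the wild type mean of that gene, from -5 (dark blue) to 5 (dark red), with values beyond these drawn at the end colours. The 28 higher genes are above the horizontal line and the 29 lower genes below it, and the lower genes vary more from array to array within a mutant genotype.

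The 29 lower genes had a median signal of 512 in wild type and 61.7 in the mutants, which is below background. Their median differences were -2.25, -2.30 and -2.56 in f/v, 2/v and Pb/2. All wild type arrays of all 29 were above background. In 9 genes all 9 mutant arrays were below it, in 12 some were, and in 8 every array was measured above it. In 6 genes every mutant mean lay at least 3 below wild type, and in 16 at least 2.

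CG34227, on 2R, had the largest smallest difference among the lower genes on this scale. It read 1752, 1601 and 1707 in wild type, 14.9, 27.3 and 40.3 in f/v, 8.21, 89.5 and 7.30 in 2/v and 72.7, 47.0 and 57.4 in Pb/2. In 7 of the 9 mutant arrays it was below background, and it was at least 25.4-fold lower in f/v, with differences of -5.33 (f/v), -5.45 (2/v) and -4.52 (Pb/2). CG6295 and CG17192 are next to each other in gene order on 3R, and the gene table lists them also as DmelL6 and DmelL5. CG6295 read 809.6, 756 and 870.4 in wild type, 35.8, 55.9 and 10.2 in f/v, 70.4, 9.09 and 30.4 in 2/v and 36.5, 3.74 and 34.7 in Pb/2. CG17192 read 215, 222 and 253 in wild type, 5.10, 11.5 and 21.3 in f/v, 13.8, 10.5 and 36.2 in 2/v and 10.2, 9.84 and 13.5 in Pb/2. All 9 mutant arrays of CG17192 and 8 of the 9 of CG6295 were below background, while every wild type array was clearly above it. CG6295 was at least 12.2-fold lower in f/v and CG17192 at least 3.45-fold.

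CG12374, on 2R, read 619.8, 515 and 447 in wild type, 7.09, 5.61 and 8.95 in f/v, 9.51, 20.7 and 13.9 in 2/v and 6.97, 7.94 and 5.27 in Pb/2. CG42329, on 2L, read 502, 588 and 445 in wild type, 21.8, 6.94 and 2.44 in f/v, 16.7, 24.2 and 2.93 in 2/v and 33.3, 45.7 and 5.29 in Pb/2. CG34026, on X, read 363, 339 and 469.8 in wild type, 9.23, 24.7 and 38.4 in f/v, 30.0, 30.0 and 29.4 in 2/v and 27.7, 48.2 and 6.61 in Pb/2. In these 3 genes all mutant arrays were below background, so only a bound can be given: in each mutant genotype the signal was at least 7.86-fold lower for CG12374, 7.64-fold for CG42329 and 5.82-fold for CG34026. CG15021, on 3L, read 645, 473 and 438 in wild type, 75.5, 9.34 and 62.2 in f/v, 10.2, 15.0 and 17.8 in 2/v and 9.01, 26.1 and 47.5 in Pb/2. One f/v array of CG15021 was above background, and in 2/v and Pb/2 it was at least 7.69-fold lower. CG4734, on 2R, read 381, 406 and 409 in wild type, 45.6, 57.5 and 57.3 in f/v, 48.8, 43.5 and 52.0 in 2/v and 52.0, 44.2 and 48.2 in Pb/2, so all of its mutant arrays were below background too, at a signal that hardly varied, and it was at least 5.99-fold lower.

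CG10911 and CG10912 are also adjacent, on 2R. CG10911 read 799, 831 and 1018 in wild type, 122, 74.7 and 158 in f/v, 72.7, 106 and 89.4 in 2/v and 106, 80.3 and 89.2 in Pb/2. CG10912 read 661, 556 and 497 in wild type, 21.3, 76.6 and 49.7 in f/v, 71.1, 127 and 75.2 in 2/v and 57, 125 and 80.2 in Pb/2. CG10911 was measured above background in every array, with differences of -2.79 (f/v), -3.10 (2/v) and -3.06 (Pb/2), while CG10912 was below background in 3 mutant arrays and had differences of -3.26 (f/v), -2.48 (2/v) and -2.55 (Pb/2). CG12998, on X, read 1709.8, 1730.4 and 1697 in wild type, 159, 161 and 195 in f/v, 154, 169 and 135 in 2/v and 206, 162 and 400.3 in Pb/2. Its wild type arrays agreed closely, and the third Pb/2 array was well above the other mutant arrays; its difference in Pb/2 (-2.77) was the smallest of the 3 genotypes. CG31606, on 2L, read 808, 754 and 721 in wild type, 153, 124 and 158 in f/v, 118, 71.2 and 95.8 in 2/v and 76.9, 70.0 and 88.0 in Pb/2. With this probe set it was lower in the sterile genotypes (-2.83 in 2/v and -3.05 in Pb/2) than in f/v (-2.27). Its second probe set, given below, did not show that difference.

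The other 17 lower genes were CG3868, CG7582, CG30287, CG4377, CG7378, CG8888, CG10116, CG15515, CG5928, CG6409, CG8736, CG10477, CG12057, CG31207, CG34330, CG40198 and CG5011. CG6409 read 3272, 3160.4 and 2756 in wild type, 654, 707 and 610.3 in f/v, 818, 937 and 894 in 2/v and 489, 498 and 503 in Pb/2. CG34330 read 3506, 3047 and 2870.2 in wild type, 1108, 1008 and 913 in f/v, 553, 606 and 723 in 2/v and 591, 516 and 597 in Pb/2. Both stayed above background in every mutant array, and the f/v arrays of CG34330 lay above all arrays of the sterile genotypes. CG10477 and CG30287 are listed in the gene table also as SP51 and as SP37, names in the series used for fly serine proteases, as is CG8870 (SP38) among the higher genes. The gene table also lists CG30287 as SPH37 and the higher gene CG42694 as SPH247. These names were taken as listed, and whether the proteins are active proteases was not tested.

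**Figure D2:**
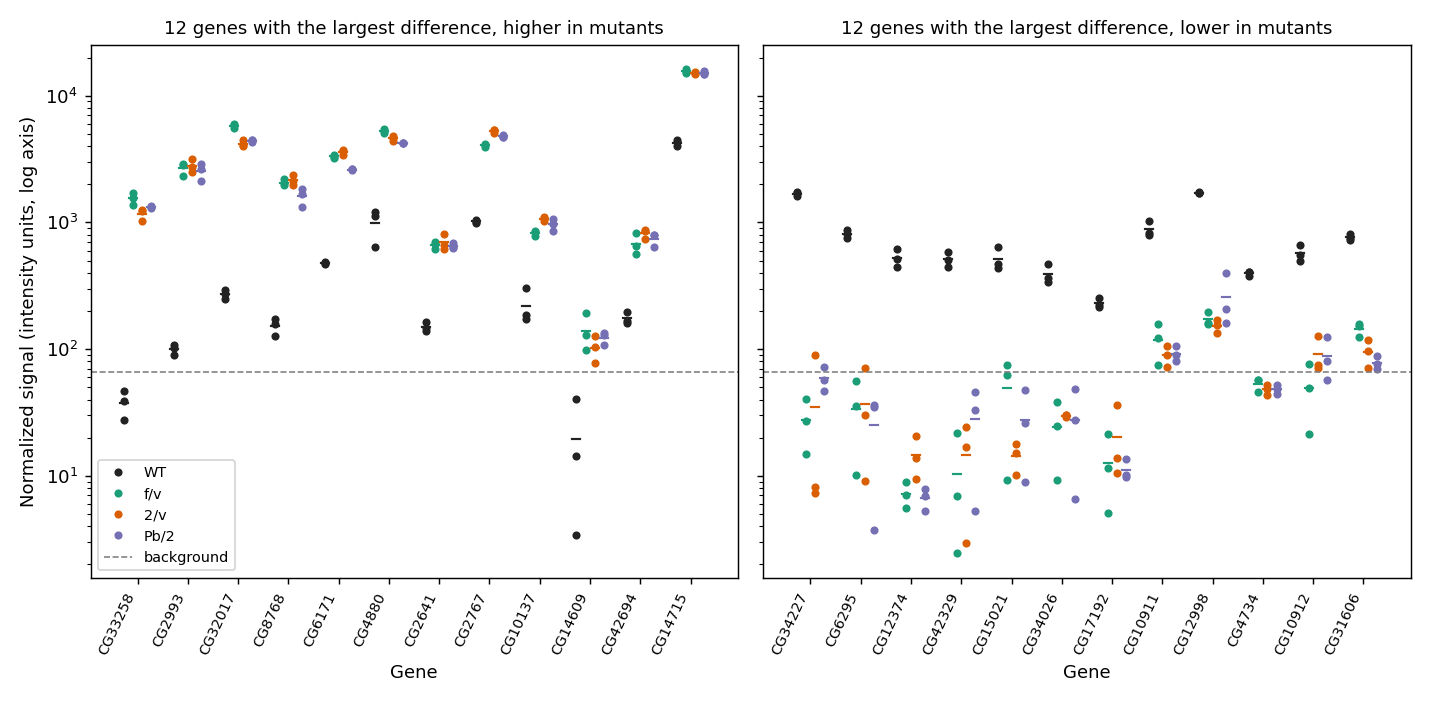
Normalized signal (intensity units, log axis) of the 12 higher and the 12 lower genes with the largest smallest difference from wild type; points are arrays, short bars the mean of the 3 arrays of a genotype, and the dashed line is background (66.5). Wild type and mutant arrays do not overlap in any of the 24 genes, and the mutant arrays of 5 of the lower genes are all under the dashed line.

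Among the 57 genes wild type arrays never overlapped the 9 mutant arrays, as against 19% of all genes tested; since the rule asked for a difference between these groups, nothing is read from that count. The narrowest gap between the nearest wild type and mutant array was 0.64 on the log2 scale for the higher genes (CG8870) and 0.66 for the lower genes (CG15515). The spread between replicates differed between the sets. The median SD of the higher genes was 0.14 in wild type and 0.15, 0.13 and 0.13 in f/v, 2/v and Pb/2, close to that of all genes (0.15, 0.15, 0.16 and 0.17). The median SD of the lower genes was 0.18 in wild type and 0.33, 0.26 and 0.32 in the mutants, where most of them had arrays below background.

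The thresholds cut through a continuous series of genes. Just inside the limit of 1.5 were CG8870 (1.5), CG6678 (1.54) and CG11825 (1.56) among the higher genes, and just outside it CG8563 (1.48), CG31955 (1.46) and CG10814 (1.46). For the lower genes CG5011 (1.51), CG40198 (1.52) and CG34330 (1.62) lay inside, and CG43103, CG31710 and CG9400 (each 1.47) outside, all given as the size of the smallest difference. The limit on the range of the mutant means kept CG34227 (0.93), CG12057 (0.98) and CG32814 (0.98) and left out CG16820 (1.03), CG13311 (1.04) and CG4650 (1.04). Without that limit 42 higher and 42 lower CG-named genes met the rule.

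Within the limit of 1 that the rule sets, the mutant genotypes still differed in order. Among the 28 higher genes the mean farthest from wild type was that of 2/v in 14, of f/v in 11 and of Pb/2 in 3. The lower genes were not ranked in this way, since most of them had mutant arrays below background. The median range of the 3 mutant means was 0.38 for the higher and 0.59 for the lower genes. In CG32814 all 6 arrays of the sterile genotypes were above all f/v arrays, with readings of 115, 116 and 126 in wild type, 459, 349.9 and 458 in f/v, 841, 783 and 911 in 2/v and 886, 812 and 693 in Pb/2. In CG13793 all 3 f/v arrays were above all arrays of the sterile genotypes, with readings of 53.5, 58.8 and 47.4 in wild type, 357, 420.3 and 377 in f/v, 229, 178 and 195 in 2/v and 219, 204 and 182 in Pb/2.

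**Figure D3:**
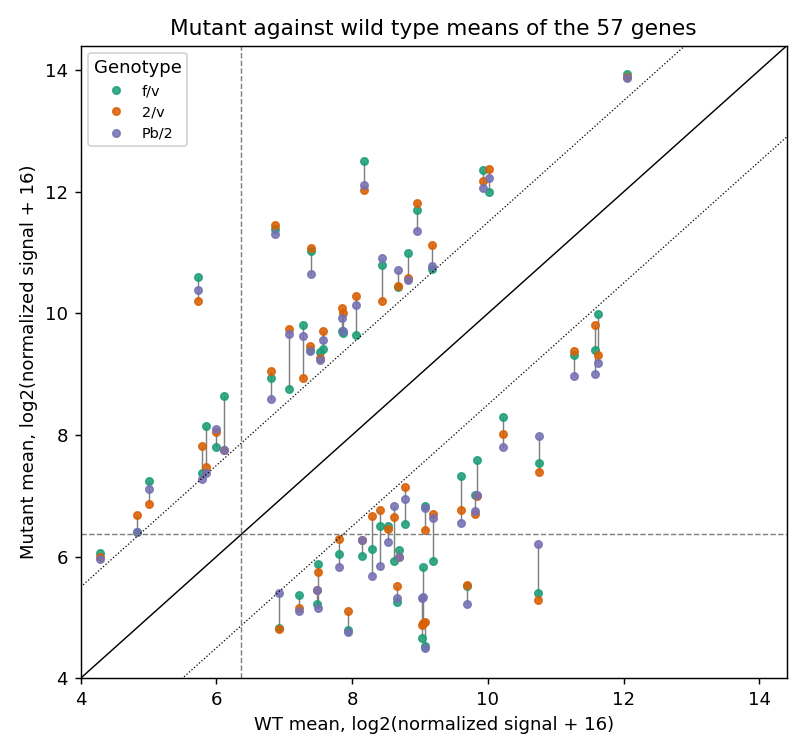
Mean log2(signal + 16) of the 57 genes in wild type (horizontal axis) and in each mutant genotype (vertical axis, coloured points joined by a grey line per gene); the solid line marks equal means, the dotted lines a difference of 1.5, and the dashed lines background. The higher genes start at a median wild type signal of 161 and the lower genes end at a median mutant signal of 61.7, under background.

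The same thresholds kept 31 higher (0.458%) and 28 lower (0.413%) of the 6773 genes that carry another name. Among these 31 the largest differences were those of Elovl7, l(2)gl and ovo. Elovl7 encodes a fatty acid elongase and differed by 5.93 (f/v), 6.03 (2/v) and 5.97 (Pb/2). The tumour suppressor l(2)gl, which acts in cell polarity, differed by 5.78 (f/v), 5.92 (2/v) and 6.30 (Pb/2). The gene ovo, which encodes a transcription factor of the female germ line, differed by 5.42 (f/v), 5.26 (2/v) and 5.27 (Pb/2). Among these 28 the farthest below wild type were Acbp3, named for acyl-CoA binding, Spn31A, a serpin by name, and Mal-A1, a maltase. Acbp3 differed by -2.91 (f/v), -3.75 (2/v) and -2.90 (Pb/2). Spn31A differed by -3.25 (f/v), -2.90 (2/v) and -2.88 (Pb/2), and Mal-A1 by -2.99 (f/v), -2.83 (2/v) and -3.16 (Pb/2). Some named genes left out by the limit on the range of mutant means had larger mean falls, such as Bace (-4.18) and alphaTry (-3.99). The wild type means of Elovl7 and l(2)gl were below background, so the size of their differences depends on the offset.

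For 54 of the 57 genes the array holds 1 probe set with a single gene, so no second measurement was at hand. CG31606 has a second probe set (mean signal 223) that the rule did not use, and it differed from wild type by -2.27, -2.23 and -2.30 in f/v, 2/v and Pb/2. The lower signal of CG31606 in the sterile genotypes than in f/v therefore rests on the chosen probe set. The second probe sets of CG12885 (0.23, 0.12 and 0.38, mean signal 14.5) and CG42329 (0.16, 0.24 and 0.32, mean signal 26.9) were below background, and that of CG42329 had the opposite sign to the chosen probe set. The size of CG42329 therefore rests on a single probe set. So does that of CG12885, whose chosen probe set had mean signals below background in every group. They were 3.48 in wild type and 59.7, 55.8 and 47.6 in f/v, 2/v and Pb/2.

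Most measured markers of gut and muscle read lower in the mutant arrays, as the lower genes did. All 11 measured of the 19 listed gut markers, chiefly digestive enzymes, read below every wild type array in all 9 mutant arrays, and 8 of them were lower by at least 1.5 in all 3 mutants. Their summed signal was between 13333 and 15473 in wild type, and 1136 to 1390, 1459 to 1559 and 1582 to 1751 in f/v, 2/v and Pb/2. None was below background in every group. Of 12 measured muscle markers 10 were below wild type in all mutant arrays, with a summed signal of 94908 to 96916 in wild type and 51703 to 54906, 45302 to 49855 and 50584 to 54349 in the mutants in that order. The part of gut or muscle RNA in the values of CG34227, CG6295 and the other lower genes was not tested. All mutant arrays lay below wild type for 3 of 6 fat body, 4 of 10 hemocyte, 2 of 9 neuron, 3 of 10 follicle cell, 1 of 11 germline and 0 of 12 testis markers. They lay above wild type for 1 fat body, 1 follicle cell and 1 germline marker, and the fat body marker fit had a mean change of 2.26. Wild type and mutant arrays did not overlap, in either direction, in 19% of all genes. The marker counts were not tested against that share. For Malpighian tubule, 2 of 3 measured markers lay above wild type in all mutant arrays, and the summed signal was 952 to 1048 in wild type and 2505 to 2698, 1853 to 2116 and 2886 to 3212 in the mutants. The remaining marker, NtR, had a mean change of -0.92.

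The rule did not use the place of the genes on the chromosomes. Of the 28 higher genes 12 (42.9%) lie on 3R, the arm that holds su(Hw), where 24.1% of all measured CG-named genes lie. Of the 29 lower genes 9 (31.0%) lie on 2R, where 19.2% of the CG-named genes lie, and 6 (20.7%) on 3R. Among the genes with another name 9 of 31 higher genes lie on 3R, which holds 25.4% of those measured, and 11 of 28 lower genes on 2R, which holds 21.1%. The 12 higher genes on 3R, counted in tested genes from su(Hw), were CG6912 at 63, CG8870 at -89, CG6171 at 114, CG31279 at 226, CG14715 at -294, CG34284 at 463, CG2767 at -716, CG2993 at -736, CG2641 at -740, CG6678 at 749, CG14609 at -796 and CG12885 at 1430 (negative before su(Hw) in the order of the gene table). The 6 lower genes on 3R were CG31207 at 664, CG40198 at -1110, CG6295 at 1371, CG17192 at 1372, CG7582 at 1601 and CG15515 at 1640. Within 800 genes on either side of su(Hw), a window chosen after seeing the data, there were 693 of the 1254 CG-named genes of the arm, 11 of the 12 higher and 1 of the 6 lower genes. Within 250 genes there were 206 CG-named genes, 4 higher and 0 lower. CG2993, CG2641 and CG2767 lie within 24 genes of each other, and so does Elovl7, 3 positions before CG2767. These positions, gene for gene, are descriptions and no test was made of them.

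**Figure D4:**
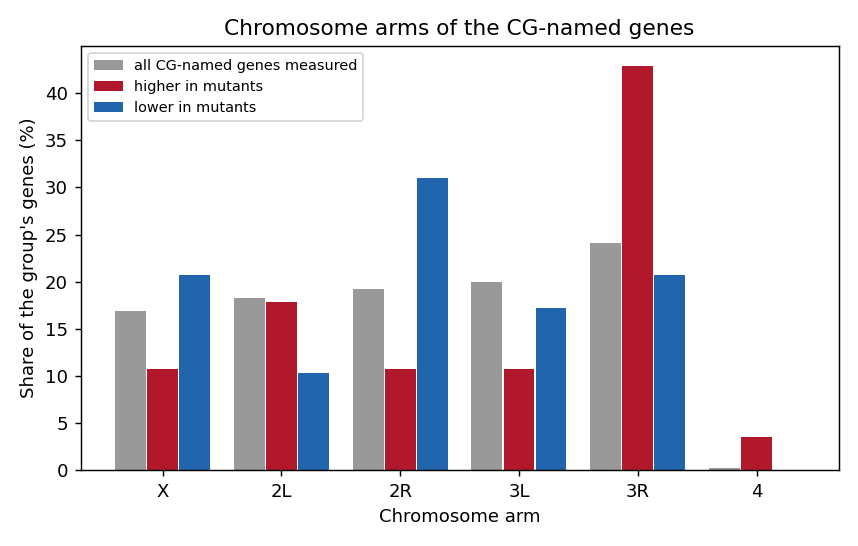
Share (%) of all 5209 measured CG-named genes (grey), of the 28 higher genes (red) and of the 29 lower genes (blue) on each chromosome arm. On 3R the higher genes make up 42.9% against 24.1% of all CG-named genes, and on 2R the lower genes 31.0% against 19.2%.

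The lower genes spanned a median of 1122 bases (n = 29), the higher genes 2461 (n = 27) and all measured CG-named genes 1718 (n = 5137).

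Genes next to the CG-named genes were set beside all genes. Neighbours that were themselves among the 57 were left out, which removes genes by their values, while the share over all genes keeps them. Left out in this way were 2 adjacent pairs, CG6295 with CG17192 and CG10911 with CG10912. All of these were called lower, so the share called lower beside the lower genes omits them. In the 56 genes with a place in gene order, the nearest tested gene on either side gave 108 genes that were not themselves among the 57. The mean of the 3 mutants was set against wild type with limma, and calls are genes with a Benjamini-Hochberg adjusted p below 0.05. Of these 108 genes 34 were called (31.5%), against 30.7% of all genes, a similar share. Of the 54 beside a higher gene 15 were called higher (27.8%, against 15.7% of all genes) and 5 lower, and of the 54 beside a lower gene 10 were called lower (18.5%, against 15.0%) and 4 higher. A mean change of at least 2-fold was seen in 17 of the 108 (15.7%) and in 7.31% of all genes. These shares were not tested against each other.

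Several neighbours of the higher genes followed the 3 genotypes unequally, unlike the CG-named gene beside them. Prx6c, a peroxiredoxin by name and the neighbour of CG11825, read 69.6, 62.8 and 71.7 in wild type, 146, 119.7 and 85.6 in f/v, 1293, 1177 and 1047 in 2/v and 1802, 1684 and 1572 in Pb/2. It was high in both sterile genotypes and far lower in f/v, whereas CG11825 was higher in all 3. CG9813, beside CG8870, read 113, 82.7 and 111 in wild type, 286, 332 and 281 in f/v, 1079, 1381 and 1347 in 2/v and 1657, 1523 and 1625 in Pb/2. Hk, which encodes a potassium channel subunit and lies beside CG2961, read 128, 157 and 144 in wild type, 136, 162 and 113 in f/v, 544, 609 and 631 in 2/v and 629, 889 and 627 in Pb/2, and was not above wild type in f/v. The reverse was seen for ss, a transcription factor of antenna and eye development beside CG31279, which read 5.14, 1.32 and 5.14 in wild type, 2096, 1976 and 1900.3 in f/v, 6.96, 11.3 and 1.33 in 2/v and 11.4, 7.45 and 7.96 in Pb/2. It was high in f/v alone, while CG31279 read 73.0, 108 and 109 in wild type, 479.5, 475 and 471 in f/v, 638, 446 and 476 in 2/v and 379, 306 and 443 in Pb/2. In limma the mean of the mutants rose for Prx6c (2.93 ± 0.13 SE, adjusted p = 1.3e-07), CG9813 (2.88 ± 0.11, adjusted p = 4.4e-08), ss (2.39 ± 0.13, adjusted p = 5e-07) and Hk (1.36 ± 0.13, adjusted p = 3.2e-05). For ss and Hk this mean therefore stands for a change in part of the genotypes.

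Other neighbours moved in all 3 genotypes. CG11638, whose span overlaps that of CG32814, read 103, 121 and 134 in wild type, 831, 771 and 863 in f/v, 2342, 1939 and 1878 in 2/v and 2069, 2498 and 1542 in Pb/2, with a mean change of 3.49 ± 0.14 (limma, adjusted p = 6.7e-08). Like CG32814 it was higher in the sterile genotypes than in f/v. The hairpin RNA gene hpRNA:CR33940, which overlaps CG32212, changed by 1.90 ± 0.20 (limma, adjusted p = 5.3e-05). Which of 2 overlapping genes a signal came from was not tested. Of 20 overlapping neighbours 9 were called, against 34 of all 108 neighbours and 30.7% of all genes, and 2 changed by at least 2-fold; the difference between these shares was not tested. Kif3C (-0.05, adjusted p = 0.86 in limma) and CG11155 (-0.34, adjusted p = 0.083) beside CG32017 did not pass the test. The neighbour of CG43052, l(2)34Fc, fell by 2.05 ± 0.18 (limma, adjusted p = 1.6e-05) where CG43052 was higher. CG43052 was near background, with mean signals of 13.0 in wild type and 69.2, 87.9 and 71.4 in f/v, 2/v and Pb/2. It was below background in 2 mutant arrays. As a bound it was only at least 1.03-fold (f/v), 1.30-fold (2/v) and 1.03-fold (Pb/2) higher.

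Beside the lower genes, CG4363 next to CG4377 fell most. It read 1012, 783 and 932 in wild type, 78.6, 67.6 and 49.9 in f/v, 14.1, 53.6 and 20.9 in 2/v and 39.96, 29.7 and 6.81 in Pb/2, and its mean fell by 4.17 ± 0.30 (limma, adjusted p = 4.2e-06), more than that of CG4377, whose mean was 2.13 lower. CG4363 does not belong to the 57 genes because its mutant means spread by more than the limit of 1. CG30283, beside CG30287, fell by 1.23 ± 0.13 (limma, adjusted p = 6.6e-05) and yip7, beside CG10477, by 1.23 ± 0.17 (limma, adjusted p = 0.00043). CG12998 had a neighbour in each direction, CG5172 at -1.01 ± 0.25 (limma, adjusted p = 0.012) and CG5162 at 1.02 ± 0.10 (limma, adjusted p = 2.9e-05). Lower genes also lay near each other: 4 pairs of lower genes were within 3 positions, namely CG6295 with CG17192, CG10911 with CG10912, CG5011 with CG42329 and CG7378 with CG34330, against 0 pairs of higher genes. That contrast depends on the cut, since the higher genes CG2993 and CG2641, at -736 and -740 from su(Hw), lie just beyond it.

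**Figure D5:**
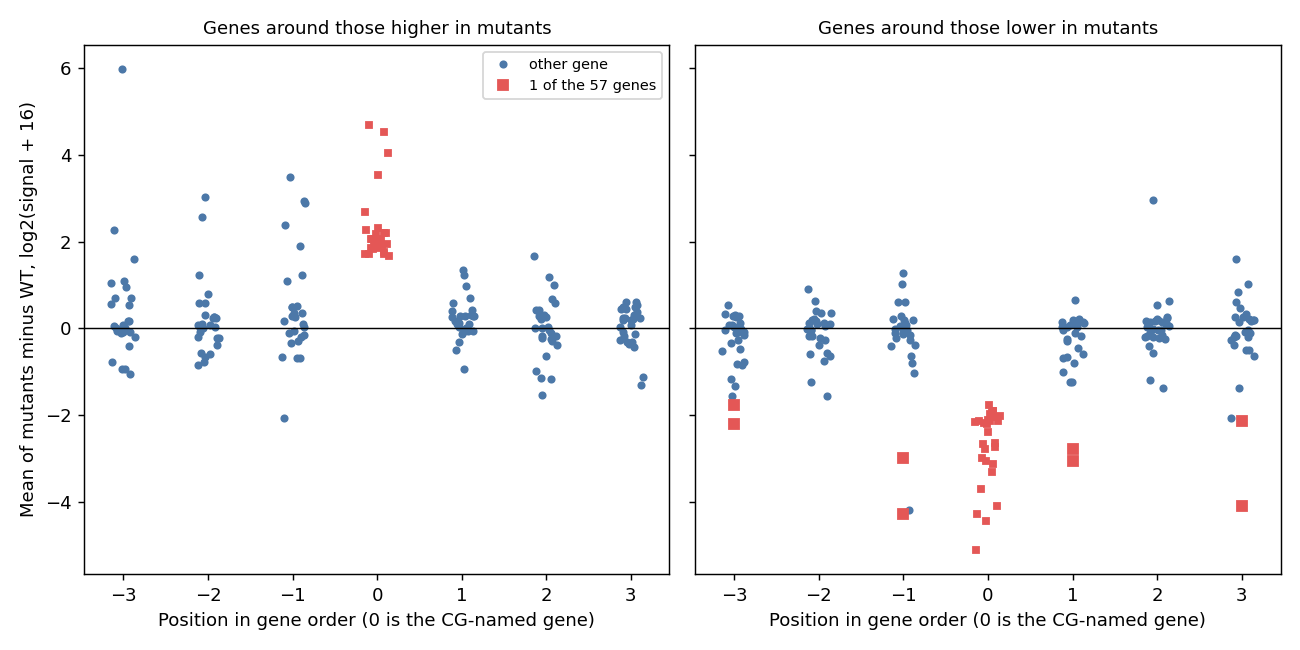
Mean of the mutants minus wild type on the log2(signal + 16) scale for the 56 CG-named genes with a place in gene order (red squares at position 0) and for the tested genes up to 3 positions before and after them (blue points, or red squares where the neighbour is itself 1 of the 57). Most neighbours lie near 0, the point near 6 beside the higher genes is Elovl7, and the red squares away from position 0 on the right are the 4 pairs of lower genes.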

How the data were processed

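Per the labels' protocols, total RNA (50 ng) from ovaries was amplified by the SPIA method, labelled with biotin and hybridized to Affymetrix Drosophila Genome 2.0 arrays. The deposited values are intensity on a linear scale, made with GCOS, per the submitters' processing notes; the sources used here give neither its version nor its settings. The trimmed mean (2% at each end) of every array is 1500.

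Of 18952 probe sets 183 are controls, 13647 name a single gene (11982 genes), 402 several and 4720 none. Intensity was transformed as log2(signal + 16) and quantile normalized over 12 arrays, and printed signals were taken back from that scale. No filter on dim probe sets was applied; all 57 genes pass one at the 40th percentile of an array in at least 3 arrays. The neighbour comparison used limma 3.58.1 under R 4.3.3 (lmFit, then eBayes) over all 11982 genes. It fitted group means and took the mean of the mutants minus wild type, with Benjamini-Hochberg adjustment. In simulated data it recovered 48.4%, 67.2%, 97.6% and 99.2% of genes changed by 0.5, 1, 2 and 3 on the log2 scale. Of the genes called there, 4.5% were false. The simulation changed a far smaller share of genes than the 30.7% called here, with independent noise, so these rates may not hold for the data. Python 3.11.15 with matplotlib 3.10.9 made the figures. The number of arrays limits the precision, and as the replicates are pools, p-values measure the spread between these samples, which may be technical.

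Gene order, arms, spans and synonyms came from the RefSeq table of Release 6 plus ISO1 MT, matched by gene number, for names and order only, since the files name no build. The members, the marker lists and the tests were chosen with earlier results of these data known. Genes given by array are the 12 in each direction with the largest smallest difference from wild type. Genes at the thresholds, adjacent pairs, second probe sets and su(Hw) are also named. So are the 3 largest genes with another name that met the thresholds in each direction. CG6409, CG34330, CG32814, CG13793, CG12885, CG31279 and the neighbours given by array were singled out after their values were seen. Promoter and protein sequences were not analysed here.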

Additional observations from a re-analysis of the deposited data

Results flagged for a closer look

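Probe sets without a gene symbol entered no comparison. Of 4720 such probe sets, 6 met the thresholds above wild type in all 3 mutants and 6 below it. The largest difference above was a probe set with a mean signal of 158 in wild type and 3023, 2203 and 3449 in f/v, 2/v and Pb/2. The largest below was one with 742 in wild type and 5.79, 16.8 and 27.9 in f/v, 2/v and Pb/2.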

How the results depend on the processing

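Each of the 57 genes kept its direction under every setting run for single genes, which the rule had largely set, since it used the same arrays. Their smallest difference moved by at least the gene's SD within groups in 41 genes with an offset of 64. It did so in 15 with an offset of 1, 24 with values as deposited and 50 with scaling to the hybridization controls. Under each other setting at most 3 genes moved that far. The 28 higher and 29 lower genes became 16 and 25 with an offset of 64 (15 and 19 of the original genes), 16 and 46 with values as deposited (16 and 28), and 7 and 98 with arrays scaled to the hybridization controls (6 and 27), a setting chosen after seeing the data. A least difference of 1.0 gave 64 and 83, one of 2.0 gave 7 and 16, and mutant means within 0.5 gave 21 and 13. An offset of 1 gave 42 and 35 (27 and 20 of the original genes). Leaving out 1 array at a time gave 26 to 32 higher and 27 to 32 lower genes. Of the 108 adjacent genes, 34 were called; this was 53 of 106 with the filter on dim probe sets, where 43.5% of all genes were called, 56 with scaling to the hybridization controls (51.9% against 57.2%), 17 when a change of at least 2-fold was also required, and 27 to 37 without 1 array. Same-numbered replicates were not correlated (18 pairs, -0.08 to 0.03), and with the replicate number as a block 34 were called (31.5%, against 26.3% of all genes). The causes were not tested. Genes whose mutant arrays are below background have only a bound.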

Other observations

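The first wild type array was the highest of the 3 in 15 of the 29 lower genes, the second in 5 and the third in 9. The same counts were 11, 6 and 11 in the 28 higher genes, and over all genes the shares were 38.9%, 30.7% and 30.4%; these shares were not tested against each other. Of the 11 gut markers 9 were highest in the first, 1 in the second and 1 in the third. Without the first wild type array 28 lower genes met the rule.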
